A study of Mus musculus with 8 samples.

Results

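The genes *Cxcl1*, *Cxcl2*, *Cxcl3*, *Cxcl5* and *Cxcl16* encode CXC chemokines that macrophages and their neighbours make to call in other leukocytes. They are 5 of the 18183 genes that an array probe set measured under a single gene symbol. A probe set is a group of short probes for one transcript, and 8 of the 45014 probe sets tested were annotated to one of these genes and to no other. Each gene was followed on its brightest probe set by the mean of 8 arrays, which is 1441855_x_at for *Cxcl1* (Entrez 14825), 1449984_at for *Cxcl2* (20310), 1438148_at for *Cxcl3* (330122), 1419728_at for *Cxcl5* (20311) and 1418718_at for *Cxcl16* (66102). The other 3 probe sets, of *Cxcl1* and *Cxcl16*, served as a check.

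The study used Affymetrix mouse genome arrays to ask how IL-10 and the loss of miR-155 reshape LPS-stimulated macrophages. Bone marrow-derived macrophages (BMDM) are marrow cells grown into macrophages in culture, here over 7 days in 15% L929-conditioned medium from marrow that had been frozen. They came from 2 wild-type (WT) female and 2 miR-155 knockout male C57Bl/6 mice, whose age the labels do not state, and were stimulated for 24 h with 100 ng/ml LPS, the bacterial lipopolysaccharide sensed by TLR4. The 4 groups of 2 arrays each were WT(LPS), WT(LPS + IL-10), *miR-155*-/-(LPS) and *miR-155*-/-(LPS + IL-10), where 20 ng/ml IL-10 was given 5 min before the LPS. Every donor gave 1 LPS and 1 LPS + IL-10 array, no group was left without LPS, and genotype cannot be told apart from the sex of the donors. *Mir155hg*, the host transcript of miR-155, ran from 2.01 to 4.02 on the WT arrays and from 1.70 to 2.19 on the knockout arrays, too low throughout to check the genotype.

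CXCL1, CXCL2, CXCL3 and CXCL5 carry the ELR motif ahead of their CXC cysteines, and mouse neutrophils sense them through the receptor CXCR2. In macrophages their genes are classic early targets of NF-κB downstream of TLR4, and their mRNAs are short-lived because AU-rich elements expose them to decay factors such as tristetraprolin. CXCL16 differs: it is made as a membrane-anchored protein, has no ELR motif, is released by the proteases ADAM10 and ADAM17, and attracts CXCR6-bearing T and NKT cells, so that its grouping with neutrophil chemokines rests on its CXC structure rather than on CXCR2. IL-10 restrains much of the LPS programme through STAT3, and miR-155 is a microRNA that LPS induces and that IL-10 is known to inhibit.

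The mature miR-155-5p, absent by design from the knockout, is shown because the genotype comparisons turn on it. It lies at chr16:84714143-84714165 on the plus strand (GRCm38.p6, RefSeq), and the capitals mark its seed, bases 2 to 8.
miR-155-5p: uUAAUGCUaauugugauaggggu

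*Cxcl5*, *Cxcl3*, *Cxcl1* and *Cxcl2* are neighbours on chromosome 5, in the gene order *Cxcl5*, *Ppbp*, *Pf4*, *Cxcl3*, *Cxcl15*, *Cxcl1*, *Cxcl2*, while *Cxcl16* lies on chromosome 11. Promoters of *Cxcl1*, *Cxcl2* and *Cxcl3*, 3 of the 5 genes, were found in the RefSeq table. The 110 bases before the start site of each are given from RefSeq (GRCm38.p6, plus strand) because these genes were measured under a common stimulus. They lie at chr5:90891135-90891244 for *Cxcl1*, chr5:90903789-90903898 for *Cxcl2* and chr5:90785991-90786100 for *Cxcl3*, and the capitals mark the runs of at least 8 bases that all 3 share within 250 bases of the start.
Cxcl1: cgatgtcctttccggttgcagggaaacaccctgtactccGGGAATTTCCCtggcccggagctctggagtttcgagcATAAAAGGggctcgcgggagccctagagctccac
Cxcl2: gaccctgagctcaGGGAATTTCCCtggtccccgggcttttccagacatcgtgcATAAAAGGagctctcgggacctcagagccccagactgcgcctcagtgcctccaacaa
Cxcl3: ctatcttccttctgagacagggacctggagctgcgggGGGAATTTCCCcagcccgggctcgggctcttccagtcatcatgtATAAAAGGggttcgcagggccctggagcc
The longer run, GGGAATTTCCC, has the form of an NF-κB (κB) site and begins at −71 in *Cxcl1*, −97 in *Cxcl2* and −73 in *Cxcl3*, counted from the start site. Searched on both strands, it occurred in 14 of 32851 promoter entries of the same length, or 0.0426%. The shorter run, ATAAAAGG, resembles a TATA box, begins at −34, −57 and −29, and occurred in 507 entries, or 1.54%. The runs do not overlap. Aligned over the 110 bases, *Cxcl1* and *Cxcl3* were 64.2% identical, and *Cxcl2* was 51.4% identical to each of the others.

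Levels are given as log2 RMA values, so that a difference of 1 is a factor of 2, and values of different genes are not compared because probes differ in brightness. As a gauge of background, 17 genes of other tissues lay below 6.15 in 95% of their 136 values, and a group is called near background where both of its arrays lie under that level. *Prm1*, one of the 17, set this level, with 6.15 to 6.48 on its brightest probe set, and without it the level was 4.50. The markers of macrophages, 9 measured, had array medians of 12.54 to 12.80, and those of T and NK cells, B cells and dendritic cells were under the background level on every array. Of 11 neutrophil markers 7 or 8 were under background on each array, always among them *Elane*, *Mpo*, *Ltf*, *Ngp*, *Prtn3* and *Cxcr2*. The summed level of all 11 (log2) was 13.45 and 13.43 in WT donors 1 and 2 with LPS and 13.78 and 13.77 with IL-10 added, against 11.34 and 11.70, then 12.62 and 12.90, in the knockout donors. This sum is set mostly by its brightest genes, such as *S100a8* (12.15 and 12.02) and *Mmp9* (12.37 and 12.40) in WT(LPS). The array medians of the 11 were 2.82 to 3.32 in WT and 2.69 to 3.06 in the knockout, under background. *S100a8*, *S100a9*, *Mmp8* and *Mmp9*, 4 of the 11, passed as lower in the knockout with LPS (limma), against 1.46% of all probe sets in either direction. With LPS + IL-10, 2 of them (*S100a9* and *Mmp9*) passed as lower, against 0.0711%. *S100a8* passed as higher with IL-10 in the knockout, against 2.68%. The part of these markers in the genotype and IL-10 differences was not tested. Stromal markers, 13 in number, stood apart in WT donor 1: their summed level (log2) was 13.70 and 13.73 on its arrays, against 7.39 to 9.42 on the other 6, and 11 of the 13 were highest in that donor. With bulk RNA, fewer cells of a type and less RNA per cell cannot be told apart.

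*Cxcl1*, a principal neutrophil attractant of LPS-stimulated tissue, carried the one change among the 5 genes that passed the test. It was 9.56 and 9.57 under LPS in WT donors 1 and 2, and 9.65 and 8.46 once IL-10 was added. The knockout donors had 9.85 and 10.34 under LPS and 7.79 and 8.54 with IL-10 as well. In the knockout both LPS arrays lay above both LPS + IL-10 arrays, whereas in WT the array of donor 1 with IL-10 lay close to the LPS arrays and that of donor 2 lay below them. In *miR-155*-/- macrophages *Cxcl1* fell with IL-10 by 1.93 on the log2 scale, or 3.81-fold (SE 0.36, 95% confidence interval −2.77 to −1.09, limma adjusted p = 0.0431). In WT the difference was −0.51 (SE 0.36, interval −1.35 to 0.33, adjusted p = 0.679).

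The IL-10 effect on *Cxcl1* differed between genotypes by −1.42 (SE 0.50, interval −2.61 to −0.22), which did not pass (limma, adjusted p = 0.435) and ran from −2.01 without the WT(LPS + IL-10) array of donor 2 to −0.82 without that of donor 1. The other *Cxcl1* probe sets gave the same call in the knockout, at −1.68 (adjusted p = 0.0405) for 1419209_at and −1.91 (adjusted p = 0.0432) for 1457644_s_at. These measure the same RNA and are not independent of the first, with Pearson's r of 0.991 and 0.998 to it over the 8 arrays, and the suffixes _x_at and _s_at mark probe sets whose probes can match more than one transcript. The call was close to its threshold: with 1 array left out it was kept in 2 of 8 fits, those without a WT(LPS + IL-10) array, and the adjusted p reached 0.249, while the log2 change stayed between −2.23 and −1.62. Without the donor block the adjusted p was 0.104.

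Between genotypes *Cxcl1* was 0.53 higher in the knockout than in WT under LPS (SE 0.41, limma adjusted p = 0.637) and 0.89 lower with LPS + IL-10, a log2 difference of −0.89 (SE 0.41, adjusted p = 0.586). Neither difference passed, and leaving out the WT(LPS + IL-10) array of donor 1 or 2 moved the second to −0.29 or −1.49. Leaving out the knockout array of donor 1 with IL-10 moved it to −0.58. The group means followed the order *miR-155*-/-(LPS) at 10.09 ± 0.35 (SD, n = 2), WT(LPS) at 9.57 ± 0.01, WT(LPS + IL-10) at 9.05 ± 0.84 and *miR-155*-/-(LPS + IL-10) at 8.16 ± 0.53. Only the first pair of neighbours in this order had arrays that did not overlap.

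**Figure D1:**
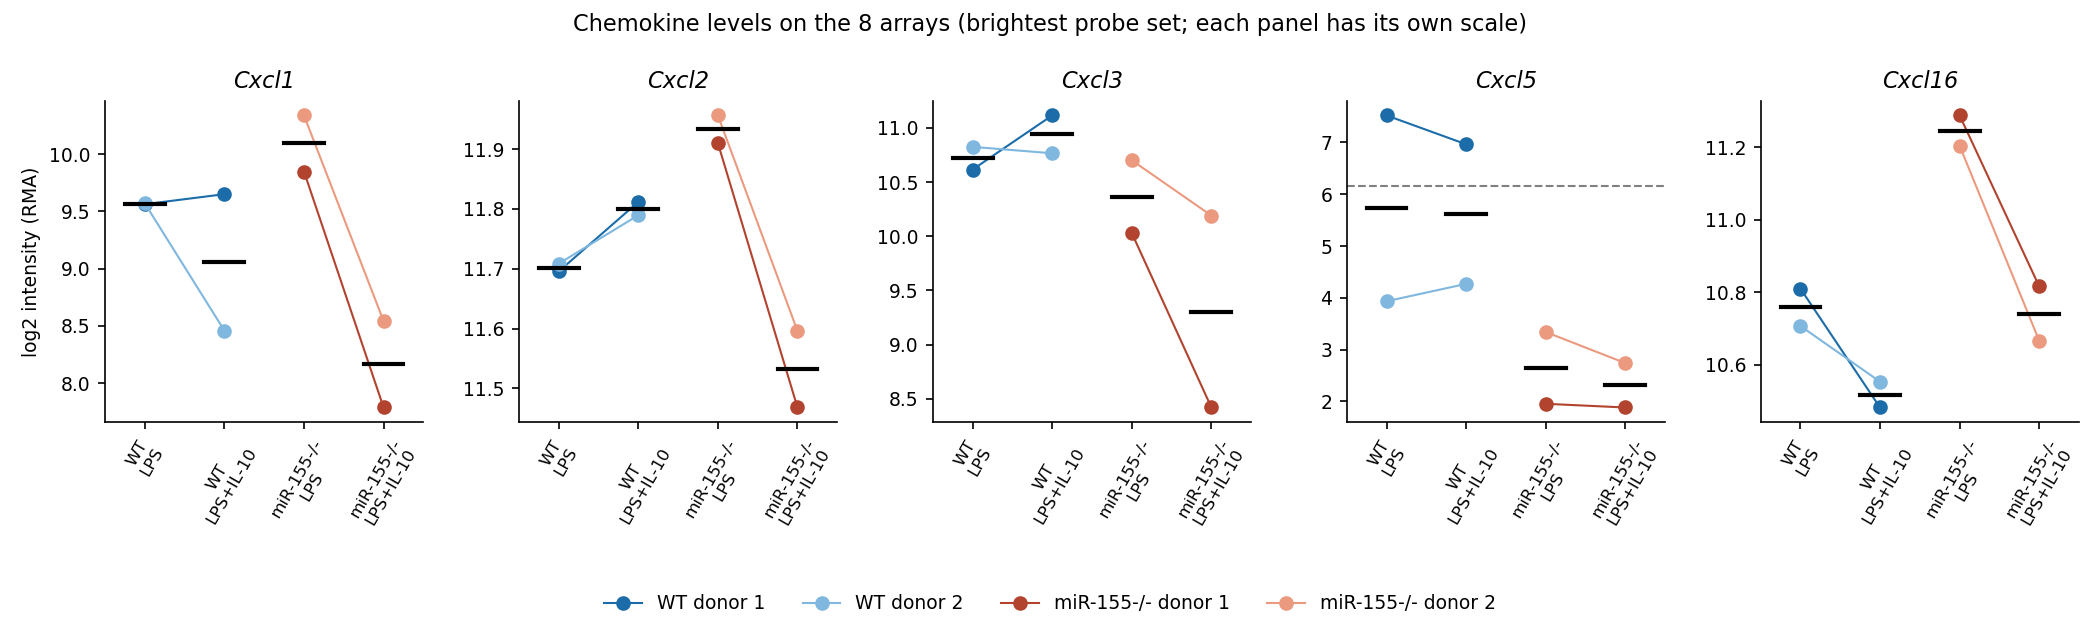
Log2 RMA intensity of the 5 chemokine genes on the 8 arrays (y axis, a separate scale per gene) in the 4 groups (x axis). Points are arrays, coloured lines join both arrays of a donor, black bars are group means, and the dashed line in the *Cxcl5* panel is the background level of 6.15. *Cxcl1* ran from 7.79 to 10.34, and *Cxcl5* was above background in WT donor 1 alone.

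*Cxcl2*, known also as MIP-2 and a major CXCR2 ligand of macrophages, had an SD of 0.16 over the 8 arrays, the smallest of the 5 genes. It was 11.70 and 11.71 in the WT donors after LPS alone and 11.81 and 11.79 after LPS with IL-10. In the knockout donors the values were 11.91 and 11.96 without IL-10 and 11.47 and 11.60 with it. No 2 groups overlapped, and the order of the means was *miR-155*-/-(LPS), WT(LPS + IL-10), WT(LPS), *miR-155*-/-(LPS + IL-10). With IL-10 it was 0.12 and 0.08 higher in the WT donors, and its differences in the knockout donors were −0.44 and −0.36.

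None of these *Cxcl2* differences passed over all probe sets. In the knockout the log2 difference with IL-10 was −0.40 (SE 0.11, interval −0.65 to −0.15, limma adjusted p = 0.11), and in WT it was 0.10 (SE 0.11, interval −0.15 to 0.35, adjusted p = 0.794). The difference between the IL-10 effects was −0.50 (SE 0.15, interval −0.85 to −0.15, adjusted p = 0.384). The signal lay above 98.1% of all probe sets on average, in the upper range of the arrays.

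*Cxcl3*, the third ELR chemokine of the cluster, was 10.62 and 10.83 in WT donors 1 and 2 without IL-10 and 11.12 and 10.77 with it. Knockout donors 1 and 2 gave 10.03 and 10.70 without IL-10, then 8.42 and 10.19 in its presence. The knockout arrays with IL-10 were the lower ones within their donors, with differences of −1.61 and −0.51, and knockout donor 1 lay below donor 2 under both treatments. In WT donors 1 and 2 the IL-10 differences were 0.50 and −0.06. The neighbours in the order of group means all overlapped.

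With LPS + IL-10, *Cxcl3* had the larger of its genotype differences, −1.64 in the knockout against WT (SE 0.51, interval −2.83 to −0.44, limma adjusted p = 0.406). In *miR-155*-/- cells the IL-10 difference was −1.06 (SE 0.44, interval −2.10 to −0.02, adjusted p = 0.28), against 0.22 in WT (adjusted p = 0.908). The difference between these effects, −1.28 (interval −2.75 to 0.19, adjusted p = 0.521), did not pass either. Without the array of knockout donor 1 with IL-10, the genotype difference was −0.85, the IL-10 difference in the knockout −0.27 and the difference between IL-10 effects −0.49. Without that of knockout donor 2 they were −2.43, −1.85 and −2.07.

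*Cxcl5*, known as LIX and made largely by epithelial and stromal cells, was above the background level in a single donor. It was 7.52 and 3.93 under LPS in WT donors 1 and 2, and 6.96 and 4.27 once IL-10 was added. The knockout donors had 1.96 and 3.34 under LPS and 1.88 and 2.74 with IL-10 as well. Both arrays above 6.15 came from WT donor 1, the donor with the high stromal markers, and the part of stromal cells in this level was not tested. Both knockout groups were near background.

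The fitted genotype differences of *Cxcl5* were −3.08 with LPS (SE 1.15, limma adjusted p = 0.301) and −3.30 with LPS + IL-10 (SE 1.15, adjusted p = 0.473). Neither is given as a fold change, because the mean of each WT group, 5.73 ± 2.54 and 5.62 ± 1.90 (SD, n = 2), was itself under the background level. With 1 array left out the difference with LPS ran from −4.59 (without WT donor 2) to −1.57 (without WT donor 1). The IL-10 differences were −0.11 in WT (adjusted p = 0.984) and −0.34 in the knockout (adjusted p = 0.921), and by donor they ran from −0.60 to 0.34. Over the 8 arrays the pattern of *Cxcl5* was most like those of *Mylk* (Pearson's r = 0.985), *Acta2* (0.977) and *Fn1* (0.976), which encode myosin light chain kinase, smooth muscle actin and fibronectin. These were the 3 highest of 695 genes searched with a mean of at least 6 and an SD of at least 0.5, and both arrays of WT donor 1 lay apart from the other 6 in *Cxcl5*.

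**Figure D2:**
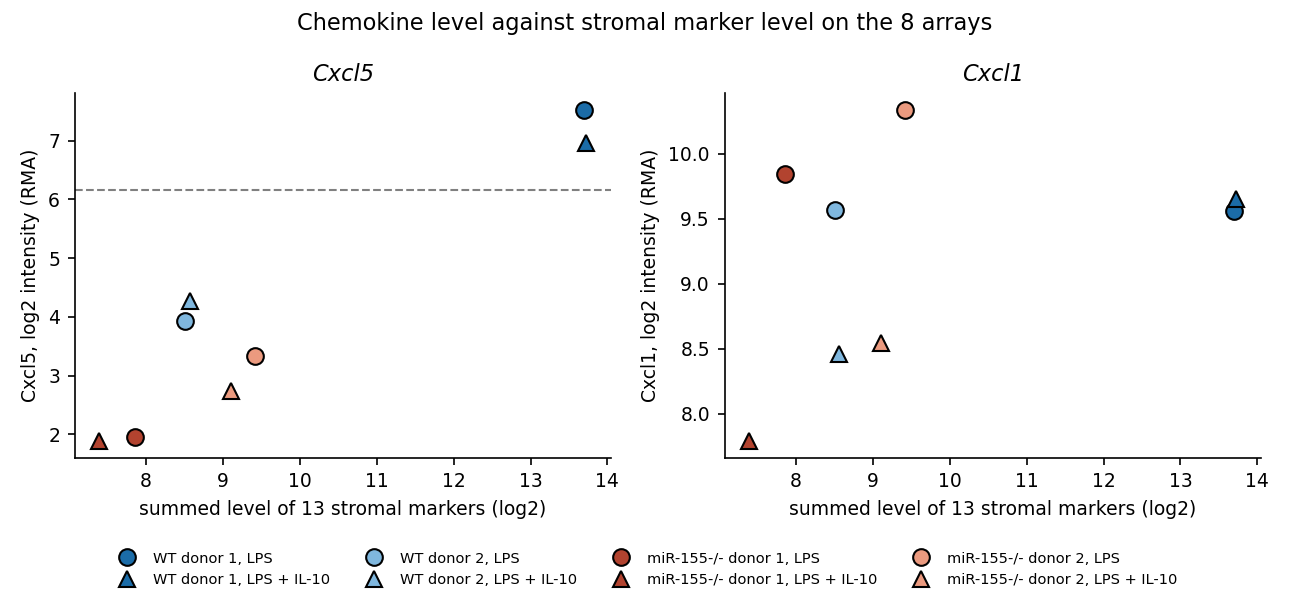
Log2 RMA level of *Cxcl5* (left) and *Cxcl1* (right) on the y axis against the log2 summed level of 13 stromal markers on the x axis, with 1 point per array, circles for LPS and triangles for LPS + IL-10. The dashed line is the background level of 6.15. WT donor 1, at 13.70 and 13.73 on the x axis, had the 2 highest *Cxcl5* values, 7.52 and 6.96, whereas its *Cxcl1* values, 9.56 and 9.65, lay within the range of the other arrays.

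The order of the group means differed from gene to gene, also among the ELR genes. *Cxcl16*, the membrane-anchored ligand of CXCR6, had its lowest mean in WT(LPS + IL-10), whereas *Cxcl1*, *Cxcl2* and *Cxcl3* had theirs in *miR-155*-/-(LPS + IL-10). It was 10.81 and 10.71 in the WT donors after LPS alone and 10.48 and 10.55 after LPS with IL-10. In the knockout donors the values were 11.29 and 11.20 without IL-10 and 10.82 and 10.67 with it. The LPS + IL-10 array was the lower one in 4 of 4 donors, with differences of −0.33 and −0.15 in WT and −0.47 and −0.54 in the knockout. The *miR-155*-/-(LPS) arrays were the highest, and those of *miR-155*-/-(LPS + IL-10) overlapped WT(LPS).

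The IL-10 difference of *Cxcl16* in the knockout, −0.50 (SE 0.11, interval −0.77 to −0.24, limma adjusted p = 0.0721), and its genotype difference with LPS, 0.49 (SE 0.13, interval 0.18 to 0.79, adjusted p = 0.148), both missed the threshold over all probe sets. In WT the IL-10 difference was −0.24 (adjusted p = 0.562), and with LPS + IL-10 the knockout was 0.22 higher (adjusted p = 0.662). The IL-10 effects differed between genotypes by −0.26 (interval −0.64 to 0.11, adjusted p = 0.596). The second probe set, 1449195_s_at, gave −0.49 (adjusted p = 0.0705) and 0.47 (adjusted p = 0.146) for the first 2 of these differences, and correlated with the brightest one at r = 0.984 over the 8 arrays.

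**Figure D3:**
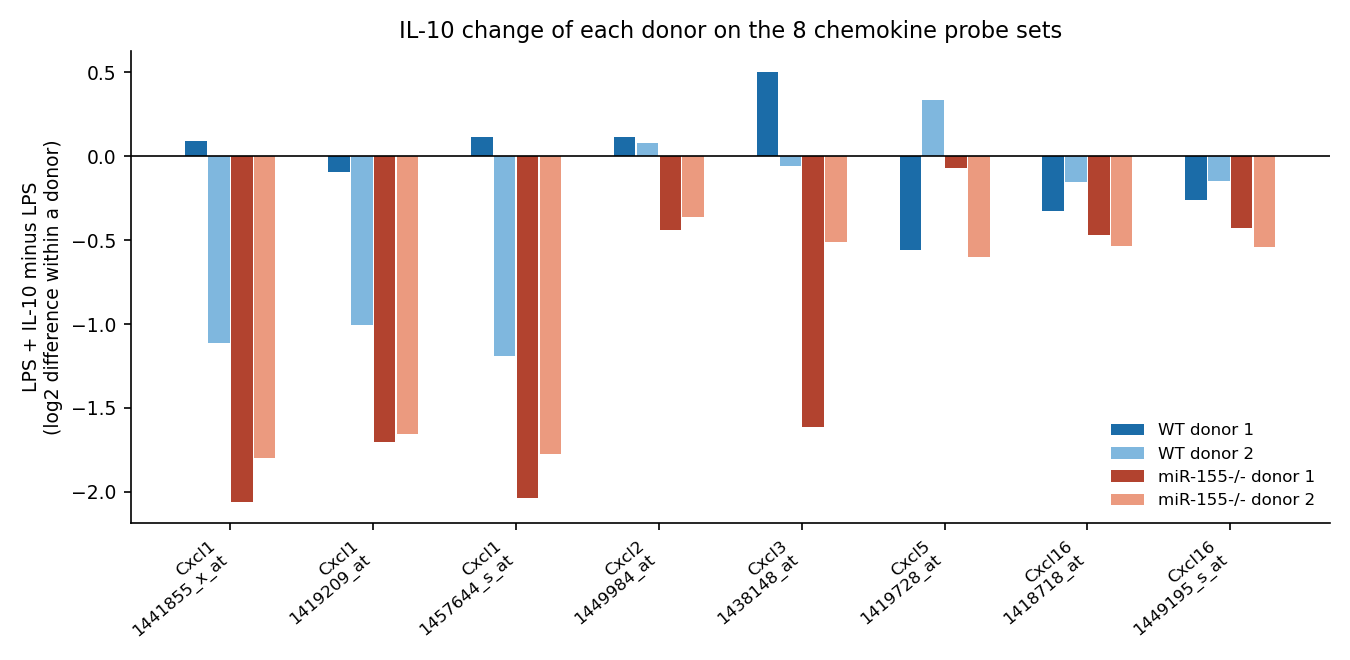
Log2 difference of LPS + IL-10 minus LPS within each of the 4 donors (bars, y axis) on the 8 chemokine probe sets (x axis). The knockout bars of *Cxcl1* reached −2.06 and −1.80 on the brightest probe set, the *Cxcl2* bars pointed up in WT and down in the knockout, and the bars of *Cxcl16* pointed down in all 4 donors on both of its probe sets.

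Over the 5 genes and 5 comparisons, 1 of 25 tests passed. With IL-10 in the knockout 1 of the 5 passed at an adjusted p under 0.05 (*Cxcl1*, lower), against 2.68% of all probe sets in either direction. At an unadjusted p under 0.05, 4 of the 5 were lower (*Cxcl1*, *Cxcl2*, *Cxcl3* and *Cxcl16*), against 17.3%, and the arrays of 3 did not overlap, all lower, against 47.9%. By the rule of the study's methods, an unadjusted p under 0.05 with a log2 fold change over 1 in size, *Cxcl1* and *Cxcl3* were lower, against 2.51% of probe sets. The median log2 difference of the 5 genes was −0.50, against 0.01 over all probe sets. The shares over all probe sets include dim ones, whereas these 4 genes lay at or above 86.8% of all in mean signal. In a fit of probe sets with a mean of at least 6 alone, 3183 of 15434 passed in this comparison, as did 3 of these 4 genes (limma).

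With IL-10 in WT, 0 of the 5 passed, also at an unadjusted p under 0.05 or by the study's rule. Of all probe sets 0.0311%, 9.27% and 0.689% met these criteria. *Cxcl2* was higher and *Cxcl16* lower with no overlap of arrays, against 32.8% of probe sets, and the median of the 5 was −0.11. The IL-10 comparisons in WT and knockout use separate arrays, and their difference passed for 0 of the 5 genes, against 0.0333% of probe sets. At an unadjusted p under 0.05 it was below 0 for *Cxcl1* and *Cxcl2*, against 10.4%, and for *Cxcl1* by the study's rule, against 1.76%. The fitted difference was negative for all 5 genes, with a median of −0.50, against −0.0008 over all probe sets. The share of negative differences over all probe sets was not counted. For *Cxcl5* it was −0.22 with an SE of 1.42 and both knockout groups near background, so that its sign says little.

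Between genotypes with LPS, 0 of the 5 passed (limma), against 1.46% of probe sets. At an unadjusted p under 0.05 *Cxcl16* was higher and *Cxcl5* lower, against 13.8%, and *Cxcl5* met the study's rule, against 2.52%. The arrays did not overlap for 4 of the 5, higher for *Cxcl1*, *Cxcl2* and *Cxcl16* and lower for *Cxcl5*, against 46.5% of probe sets. For *Cxcl1* this did not hold on its probe set 1419209_at, where the arrays overlapped. With LPS + IL-10, 0 passed, against 0.0711%, and *Cxcl3* and *Cxcl5* were lower at an unadjusted p under 0.05, against 8.94%, and by the study's rule, against 1.22%. The arrays of 4 genes did not overlap, lower for *Cxcl2*, *Cxcl3* and *Cxcl5* and higher for *Cxcl16*, against 38.9%. The medians of the 5 genes were 0.23 and −0.89, against 0.02 and 0.03 over all probe sets. Each genotype comparison shares arrays with the IL-10 comparisons, so that their values are not independent.

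**Figure D4:**
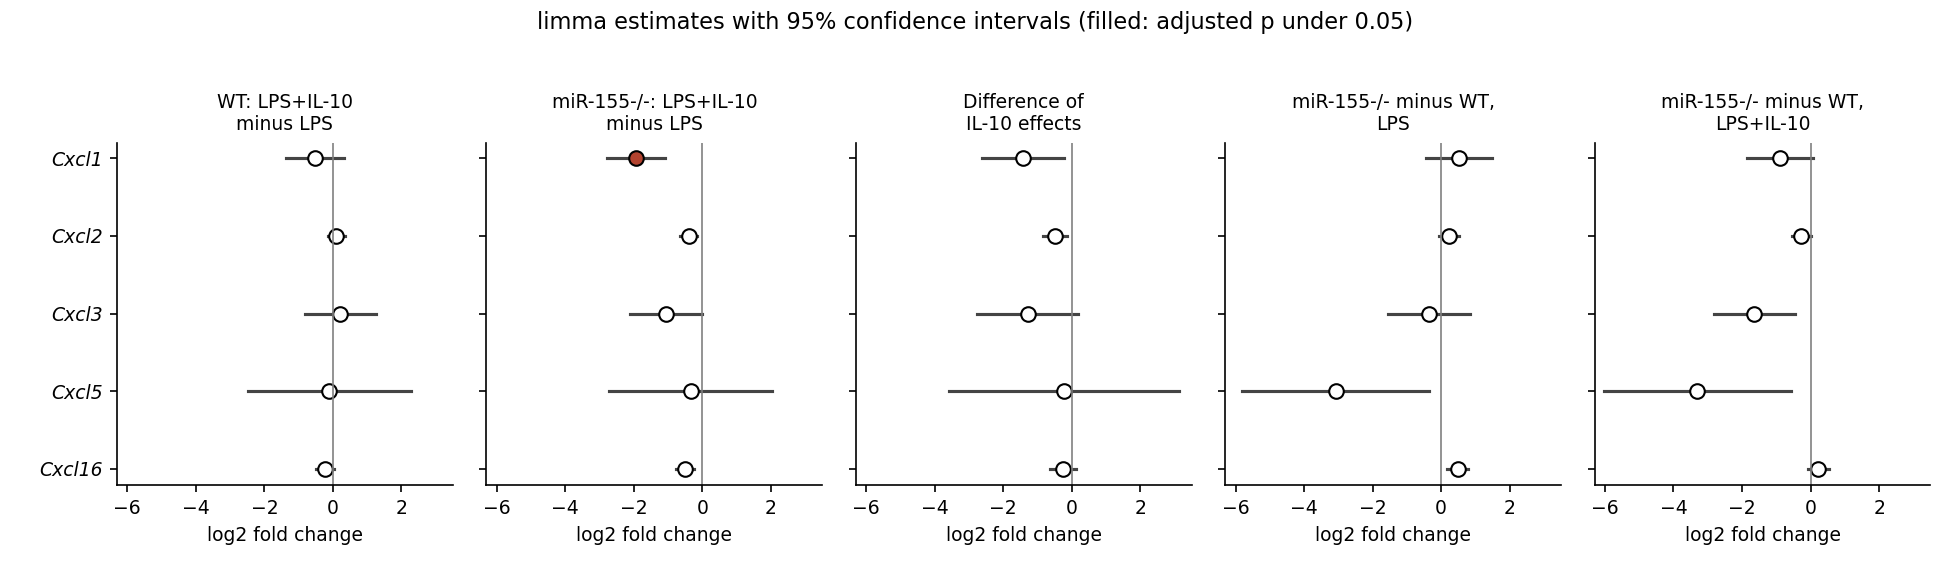
Log2 fold changes (x axis) of the 5 genes (y axis) in 5 comparisons, with 95% confidence intervals from limma as lines and a filled point for an adjusted p under 0.05. The one filled point is *Cxcl1* with IL-10 in the knockout, at −1.93, and the widest intervals are those of *Cxcl5*.

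The genes also differed in how they varied together. Over the 8 arrays *Cxcl1* and *Cxcl2* had a Pearson's r of 0.831, *Cxcl1* and *Cxcl3* 0.655, *Cxcl2* and *Cxcl3* 0.648, and *Cxcl3* and *Cxcl5* 0.632, whereas *Cxcl5* had 0.321 with *Cxcl1* and 0.14 with *Cxcl2*. *Cxcl16* had 0.487 with *Cxcl1*, 0.467 with *Cxcl2*, −0.24 with *Cxcl3* and −0.49 with *Cxcl5*. These values describe 8 arrays of 4 donors that share groups, and no test was made of them. The genes closest to *Cxcl16* were *Cxcl10* (r = 0.984), a chemokine induced by interferons, *H2-Q5* (0.981) and *Nt5c3* (0.98). Those closest to *Cxcl1* were *Olfml3* (0.881), *H2-Eb1* (0.88) and *Tpbg* (0.877), those closest to *Cxcl2* were *Rbpms* (0.901), *Egr1* (0.859) and *Cxcl1*, and those closest to *Cxcl3* were *Cd74* (0.886), *H2-Aa* (0.87) and *Fzd1* (0.867).

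Of the receptors and remaining ligands of the axis, 6 of 7 genes listed were measured and 0 passed in any of the 5 comparisons (limma). *Cxcr2*, the neutrophil receptor of the ELR chemokines, lay at 1.46 to 2.23 and *Cxcr6*, the receptor of CXCL16, at 1.67 to 2.16, both under background on all 8 arrays. At an unadjusted p under 0.05, 2 of the 6 were lower in *miR-155*-/-(LPS), against 13.8% of all probe sets in either direction, and 3 were higher with IL-10 in the knockout, against 17.3%. The platelet chemokine genes *Pf4* and *Ppbp*, neighbours of *Cxcl3* singled out here after their values were seen, were both among these. *Pf4* had a log2 difference of −1.76 between genotypes with LPS (adjusted p = 0.0646) and of 1.36 with IL-10 in the knockout (adjusted p = 0.0696), the latter opposite in sign to the −1.93 of *Cxcl1*. In WT donors 1 and 2 *Pf4* also rose with IL-10, from 12.91 and 12.77 to 13.13 and 13.12. *Ppbp* was 8.50 and 8.19 in WT donors 1 and 2 without IL-10 and 9.73 and 9.90 with it. In the knockout donors it was near background without IL-10, at 3.18 and 5.94, and at 5.99 and 8.67 with it. No size is given for its differences against that near-background group, and it was higher with IL-10 in each donor. Of *Adam10*, *Adam17* and *Rhbdf2*, which take part in the shedding of CXCL16 or in the trafficking of its proteases, 0 of 3 passed in any comparison, also at an unadjusted p under 0.05.

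Of 12 genes of chemokine transcription and mRNA decay, 11 were measured. In *miR-155*-/-(LPS) against WT(LPS) 1 was higher and 1 lower, where 1.46% of all probe sets passed in either direction, and with IL-10 in the knockout 1 was higher and 1 lower, where 2.68% did. *Rel*, which encodes the NF-κB subunit c-Rel, was 6.20 and 6.69 in WT donors 1 and 2 without IL-10 and 5.75 and 6.10 with it. Knockout donors 1 and 2 gave 7.66 and 7.65 without IL-10, then 6.40 and 6.50 in its presence. It rose by 1.21 with the knockout (SE 0.19, limma adjusted p = 0.0361), a call kept in 0 of 8 fits with 1 array left out, and fell by 1.2 with IL-10 in the knockout (SE 0.16, adjusted p = 0.016), kept in 4 of 8.

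*Zfp36l1*, a relative of tristetraprolin that promotes decay of AU-rich mRNAs, went the other way. It was 11.41 and 11.25 under LPS in WT donors 1 and 2, and 11.56 and 11.53 once IL-10 was added. The knockout donors had 10.07 and 10.27 under LPS and 10.76 and 11.01 with IL-10 as well. It fell by 1.16 with the knockout (SE 0.15, limma adjusted p = 0.0188), kept in 4 of 8 fits with 1 array left out, and rose by 0.71 with IL-10 in the knockout (SE 0.13, adjusted p = 0.0385), kept in 0 of 8. Its dimmer probe set, at 3.63 to 6.02, was under the background level of 6.15 on all 8 arrays and was not used as a check of these changes. Its highest value was above the level of 4.50 without *Prm1*. The other 9 genes, among them *Rela*, *Nfkbia* and *Zfp36* (tristetraprolin itself), passed in none of the 5 comparisons.

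Among 7 other secreted cues by which macrophages act on neutrophils, 1 was higher and 1 lower in *miR-155*-/-(LPS), against 1.46% of all probe sets in either direction, and 3 were lower with IL-10 in the knockout, against 2.68%. *Csf3*, which encodes the granulopoietic factor G-CSF, was 9.29 and 9.46 in the WT donors after LPS alone and 8.88 and 9.14 after LPS with IL-10. In the knockout donors the values were 7.83 and 8.29 without IL-10 and 7.50 and 7.74 with it. It fell by 1.31 with the knockout under LPS (SE 0.19, limma adjusted p = 0.0271, 2 of 8 fits with 1 array left out), with every knockout array below every WT array.

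*Il1a*, the gene of the alarm cytokine IL-1α, was 5.07 and 6.26 in WT donors 1 and 2 without IL-10 and 4.0 and 4.36 with it. Knockout donors 1 and 2 gave 8.65 and 8.84 without IL-10, then 5.25 and 5.67 in its presence. It was higher with the knockout under LPS (limma adjusted p = 0.0141, 6 of 8 fits). No size is given for this difference, because the WT(LPS) array of donor 1 and the WT(LPS) mean of 5.66 were under the background level. With IL-10 in the knockout *Il1a* fell to near background, by at least 2.59 on the log2 scale (limma adjusted p = 0.0049, 7 of 8 fits). *Il6* went from 9.93 and 10.12 to 4.23 and 4.75 in the knockout with IL-10, at least 3.87 lower on the log2 scale (adjusted p = 0.0257, 2 of 8 fits). *Tnf*, at 10.82 and 10.58 in *miR-155*-/-(LPS) and 9.84 and 9.49 with IL-10, fell by 1.04 (SE 0.16, limma adjusted p = 0.0267, 2 of 8 fits). Both genes were also lower with IL-10 in each WT donor. In WT donors 1 and 2 *Il6* went from 7.29 and 6.05 to 6.52 and 2.86, where both values of donor 2 were under background. *Tnf* went from 9.51 and 9.78 to 8.81 and 9.17. The difference of IL-10 effects passed for 0 of the 7 cues, against 0.0333% of all probe sets.

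**Figure D5:**
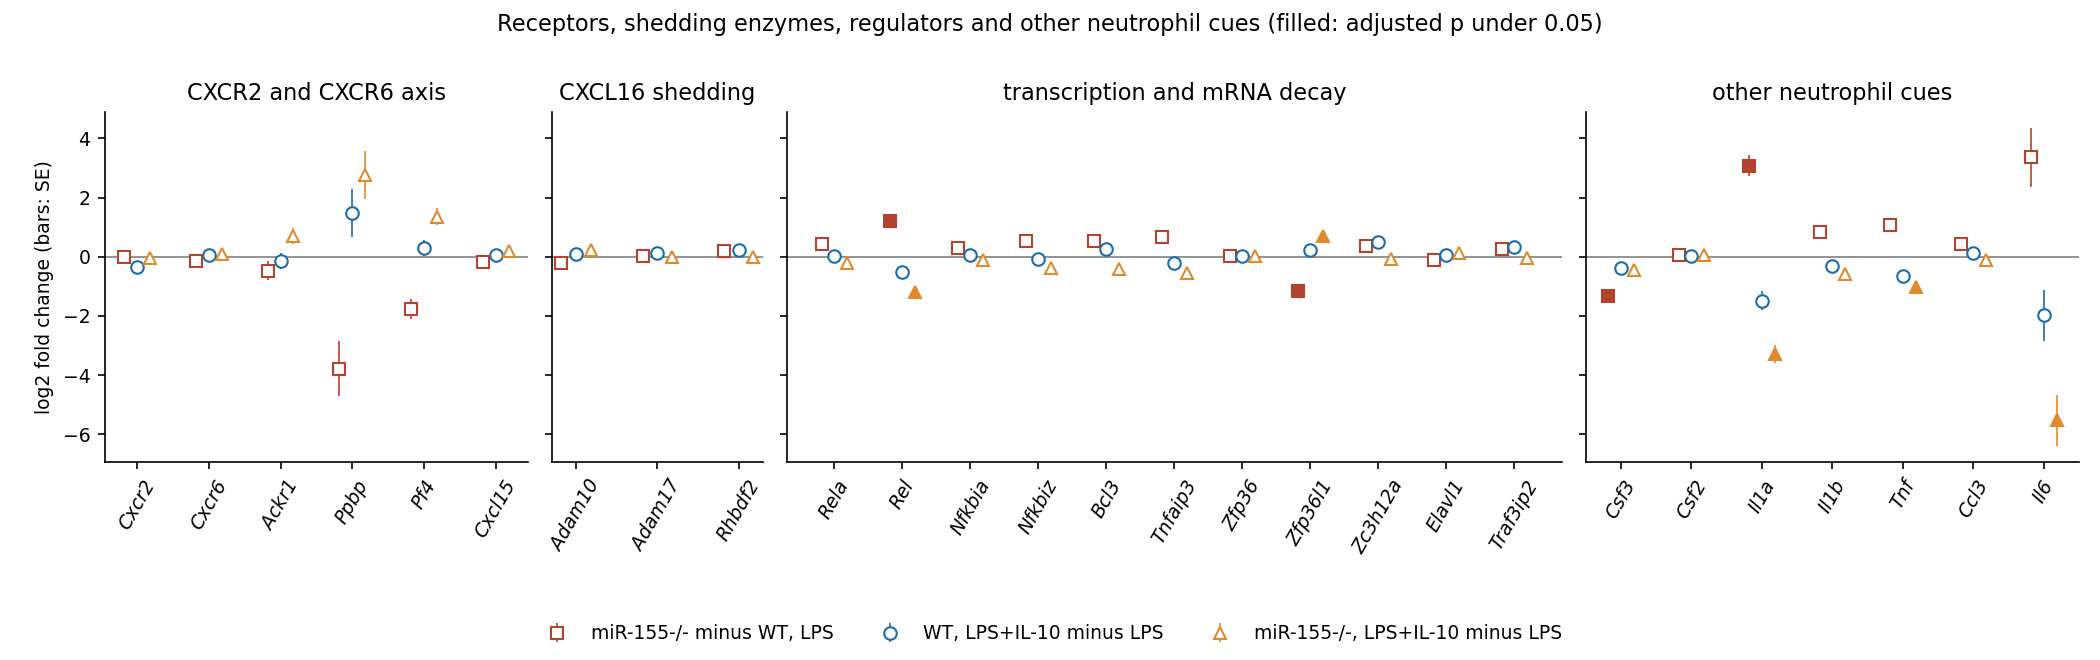
Log2 fold changes (y axis, bars are standard errors from limma) of genes of the chemokine axis, CXCL16 shedding, transcription and mRNA decay, and other neutrophil cues (x axis), for the knockout against WT with LPS (squares) and for IL-10 in WT (circles) and in the knockout (triangles). Filled symbols mark an adjusted p under 0.05: *Rel*, *Il1a*, *Zfp36l1* and *Csf3* with LPS, and *Rel*, *Zfp36l1*, *Il1a*, *Il6* and *Tnf* with IL-10 in the knockout. The fitted values of *Il1a* and *Il6* are drawn, not their bounds.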

How the data were processed

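The authors hybridised NuGEN-amplified RNA of 8 samples to Affymetrix mouse genome arrays and deposited log2 values after RMA normalisation with the affy package, which corrects background, equalises the arrays' distributions and summarises the probes of a set. Versions were not given in the sources used here. Of 45101 probe sets, 64 controls and 23 sex-linked probe sets (Y-linked genes, *Xist*) were removed, as the study's methods do, leaving 45014. GEO's platform annotation gave 34958 probe sets 1 gene symbol, 932 several and 9211 none. Of the first, 34754 had an Entrez ID in RefSeq (GRCm38.p6), and 0 symbols differed.

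Groups were compared with limma 3.58.1 in R 4.3.3 (group means of all 8 arrays, donor as a random block with a correlation of 0.24 from duplicateCorrelation) and Benjamini-Hochberg adjustment over all probe sets tested, at 0.05. The design followed the study's methods, with 3 comparisons more than its pair. Same-donor arrays deviated together (r = 0.754 in WT, 0.23 in the knockout), and the pairing comes from the labels, which give a replicate number to each donor. With 2 arrays a group, their number limits the precision. The procedure was tested on simulated data. Python 3.11.15 and matplotlib 3.10.9 were used for sequences and plots.

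The 5 genes and all lists were chosen with earlier results of these data known. Named beside them were *Cxcr2*, *Cxcr6*, each listed gene that passed in any comparison, and for each member the 3 genes of highest r. Alternatives concerned the donor block, low signals, variance trend, array weights, scaling, probe set choice, the arrays used and the call rule.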

Additional observations from a re-analysis of the deposited data

Results flagged for a closer look

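*Cxcl2* stood out because its IL-10 difference was above 0 in both WT donors (0.12 and 0.08 on the log2 scale) and below 0 in both knockout donors (−0.44 and −0.36). The difference between the IL-10 effects was −0.50 (limma interaction, adjusted p = 0.384 over all probe sets), so that it did not pass. The fitted IL-10 difference was 0.10 in WT and −0.40 in the knockout, where the median size over all probe sets was 0.15 and 0.17. The share of all probe sets with such opposite signs was not counted. Groups of 2 arrays are too small for a search for outlying arrays.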

How the results depend on the processing

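With IL-10 in the knockout 1 of the 5 chemokine genes passed, and this count was 0 without the replicate block (no donor term) and 0 with the replicate number as a block, where the adjusted p of *Cxcl1* was 0.104 and 0.135 (limma). Of 45014 probe sets, 492 and 520 passed in these fits, against 1206 in the main fit. The count was 3 of the 4 genes left without probe sets of a mean under 6, where 3183 of 15434 passed. It was 2 with an intensity trend and robust variance (*Cxcl2* and *Cxcl16*, with *Cxcl1* at 0.0665), where 2422 probe sets passed. With array weights it was 2, where 2410 passed. It was 3 with the mean over a gene's probe sets, where 1039 of 18183 genes passed. By the study's rule, met by 1129 probe sets, it was 2. With 1 array left out it ran from 0 to 1, and it was 1 only without an array of WT(LPS + IL-10). Over the 20 alternatives that tested it, *Cxcl1* passed in 11, with adjusted p from 0.00562 to 0.249. With LPS, the count between genotypes went from 0 to 1 by the study's rule (*Cxcl5*), with the filter on low means and with the trend (*Cxcl16* in both). There, 1135 of 45014, 1523 of 15434 and 1570 of 45014 probe sets were called, against 659 in the main fit. By the study's rule the count was 2 with LPS + IL-10 and 1 for the difference of IL-10 effects, against 551 and 791 probe sets. With IL-10 in WT it stayed at 0 under every alternative run. The causes of these shifts were not tested.

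The sign of a difference turned in 10 cases, all in differences that did not pass. With IL-10 in WT and both arrays of WT donor 1 left out, *Cxcl3* was at −0.0595 and *Cxcl5* at 0.34. With 1 array left out, *Cxcl1* in WT ran from −1.11 to 0.0849, and *Cxcl5* from −1.62 to 1.40 in WT, from −0.91 to 0.23 in the knockout and from −1.73 to 1.29 for the difference. Of the remaining values of the 5 genes 472 kept sign and side of the threshold, 14 newly passed and 9 no longer passed. For the other named genes, in the comparisons where they passed, 122 values kept their call and 63 no longer passed. Without *Prm1*, a gene of another tissue left out after its values were seen, the background level was 4.50, at which *Cxcl5* lay under it in the same groups, but neither *Il1a* nor *Il6* did in both knockout arrays with IL-10, so that their bounds would not apply. Both WT(LPS) arrays of *Il1a* and 1 of the *miR-155*-/-(LPS) arrays of *Ppbp* lay above 4.50, as did the highest value of the dimmer *Zfp36l1* probe set. With only the compared arrays, donor was a fixed term for IL-10 and left out between genotypes. As a fixed block, donor allows no genotype comparison.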
